A study of Mus musculus with 6 samples.

Results

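The nuclear-encoded genes of the mitochondrial respiratory chain were compared between JMML and WT mouse libraries. They were taken as the protein-coding genes of GENCODE vM21 on nuclear chromosomes whose symbols start with Nduf, Sdha, Sdhb, Sdhc, Sdhd, Uqcr, Cox4i, Cox5, Cox6, Cox7, Cox8 or Atp5. Of 98 such gene records, 97 had a row in the count tables, among 46078 genes in all. By role they were 36 genes of complex I, 4 of complex II, 8 of complex III, 20 of complex IV, 17 of complex V and 12 assembly factors. The assembly factors are not subunits, nor are Cox7a2l, a supercomplex factor counted with complex IV, and Atp5s, an associated factor counted with complex V. Genes named outside these symbols, such as Cyc1 of complex III, were not members.

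The data are RNA sequencing of total RNA, in 3 libraries whose genotype label is juvenile myelomonocytic leukemia (JMML), a childhood leukemia of monocytic and granulocytic cells, and 3 whose label is wild type (WT). The series is titled as a study of fetal hematopoiesis and juvenile leukemia in mice, with cases set against controls. No label used here names a tissue, age, strain, allele, promoter or treatment, so the groups can be described only by those genotype words. Whether replicates are separate animals is not stated either, and p-values below measure the spread between these 6 libraries.

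The respiratory chain passes electrons from NADH and succinate to oxygen and uses the proton gradient this builds to make ATP. Complex I oxidises NADH, complex II oxidises succinate, complex III passes electrons from ubiquinol to cytochrome c, complex IV reduces oxygen and complex V is the ATP synthase. Complexes I, III, IV and V are built from nuclear-encoded and mitochondrially encoded subunits, and complex II from nuclear-encoded subunits alone.

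Total counts ranged from 47096464 to 108395459 per library, and the JMML libraries were all deeper than the WT libraries. The 97 genes took between 0.690% and 0.843% of each library's counts, with 0.818%, 0.807% and 0.843% in JMML and 0.766%, 0.690% and 0.696% in WT. Library identifiers end in F in JMML replicates 1 and 2 and in M in the other 4, and Xist, the transcript of X inactivation, had 54449 and 49961 counts in those 2 libraries and at most 36 in any other. All 8 B cell markers, 6 of 6 T cell markers, 6 of 6 platelet markers and 5 of 7 erythroid markers were called lower in JMML. Called higher were 4 of 5 primary granule, 3 of 5 monocyte and 4 of 5 dendritic markers. Of 6 mature neutrophil markers 1 was called higher, and of 6 macrophage markers 1 was called higher and 2 lower. Of 6 endothelial and stromal markers 5 were called lower. Among all genes tested 12.4% were called higher and 13.8% lower. The summed level of the B cell markers was at most 15.2 CPM (counts relative to the scaled library total) in JMML and 102 to 442 CPM in WT, and that of the erythroid markers 58.5 to 304 CPM against 735 to 1190 CPM. The summed monocyte markers measured 2130 to 2950 CPM in JMML against 1130 to 1250 CPM in WT. The part of these cell type differences in the results below was not tested, and in bulk RNA fewer cells of a type and less RNA per cell cannot be told apart.

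Respiratory chain genes were more often higher than lower in JMML, by small amounts. Of the 97, 94 passed the filter on low counts, and 32 were called higher and 1 lower, Cox6b2, in edgeR's quasi-likelihood test at a Benjamini-Hochberg adjusted p under 0.05. The members called higher made up 34.0% of those tested, where 12.4% of all 18097 genes tested were called higher. The share called lower was 1.06%, where the share of all genes was 13.8%, and 26.2% of all genes were called in either direction. Their median log2 fold change of JMML over WT was 0.39, against -0.02 over all genes tested. Among 8496 protein-coding genes of like level, between the 10th and 90th percentile of the members (6.36 to 138 CPM), the median was 0.08 and 17.3% were called higher. By sign alone 86 members were higher and 8 lower, and 74 were higher with library totals and likewise with the trend with main transcript length removed. All 3 JMML libraries lay above all 3 WT libraries for 59 members and below them for 3, and the groups did not overlap in 47.5% of all genes.

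**Figure D1:**
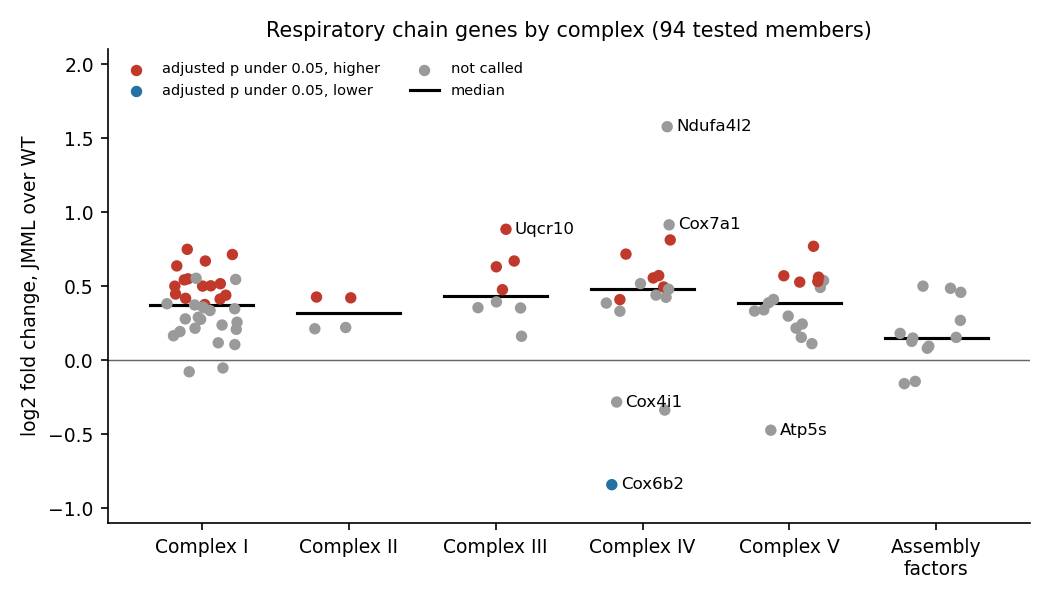
Log2 fold change of JMML over WT for the 94 tested members, by complex, with each point 1 gene and each black line the median of its class. The medians are 0.38, 0.32, 0.44, 0.48 and 0.39 for complexes I to V and 0.15 for the assembly factors, and Cox6b2 is the only member called lower.

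The share called higher did not exceed that of all genes under several other ways of processing the counts. Among protein-coding genes short transcripts ran higher in JMML, and 52 of the 94 members have main transcripts under 1000 bases. Over all genes tested, the trend with exon length was taken relative to the mean of all 6 libraries (log2). At 500 bases the groups overlapped, with JMML at -0.11 to 0.14 and WT at -0.015 to 0.065. At 8000 bases JMML lay lower, at -0.32 to -0.11 against 0.065 to 0.25 in WT. With the trend with exon length removed in each library and each library centred, 12 of 94 members (12.8%) were called higher, and 12.8% of all genes. The same removal on the length of the main transcript left 5 members (5.32%), against 12.7% of all genes. These were Ndufv3 of complex I, Uqcr10, Uqcrfs1 and Uqcrq of complex III and Cox7a2 of complex IV. Scaling by library totals alone gave 6 members (6.38%) against 7.07%, and moved the median of all genes to -0.21. The members' median there was 0.19, or 0.40 above that of all genes, beside 0.41 above it with TMM, edgeR's trimmed mean scaling. Adjusting for the identifier letter left 1 member (1.06%) against 5.35%, a fit in which the group difference rests on JMML replicate 3. Leaving out WT replicate 2 also left 1 member (1.06%) against 5.56%. With the replicate number as a block the share stayed above that of all genes, at 9 members (9.57%) against 7.50%.

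**Figure D2:**
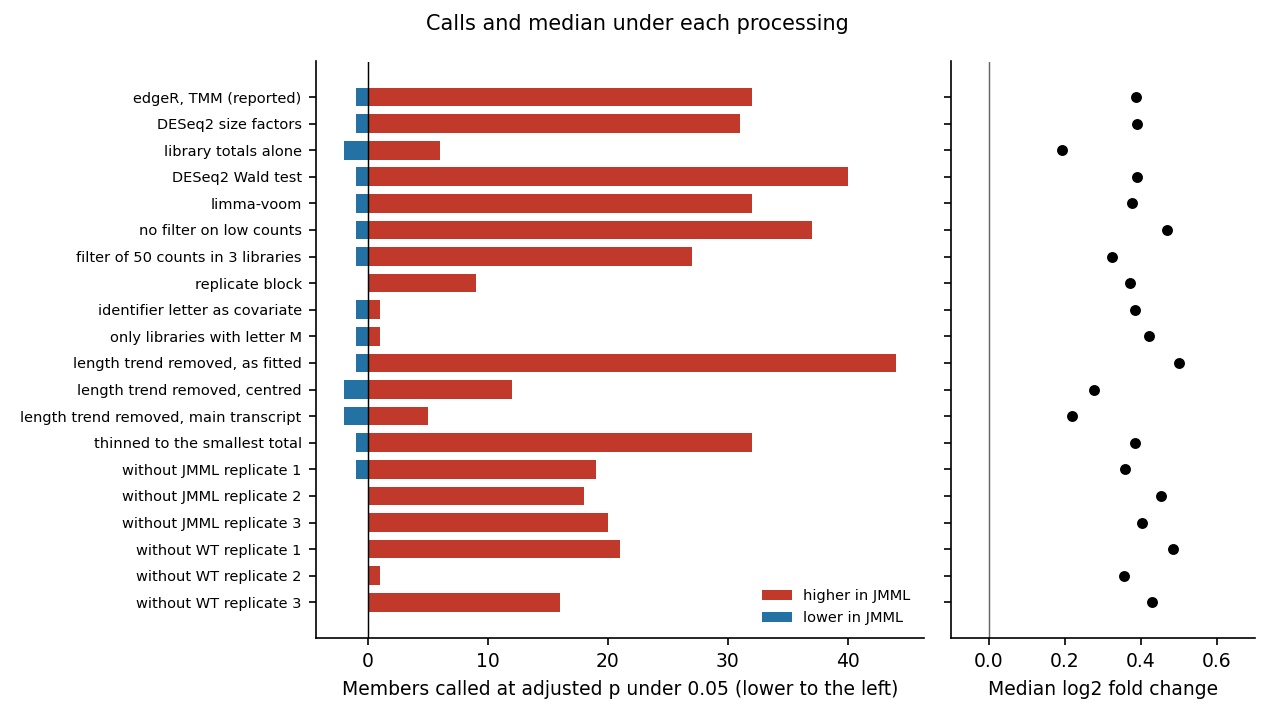
Members called higher (bars to the right) and lower (bars to the left) at an adjusted p under 0.05, and the members' median log2 fold change (points), for the reported test and 19 alternatives. Calls range from 1 to 44 higher, and the median stays between 0.19 and 0.50.

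Members were set beside other protein-coding genes of the same length. With classes set on the length of the main transcript, the 52 tested members under 1000 bases had a median log2 fold change of 0.44, and the 914 protein-coding genes of that class 0.34. Between 1000 and 2000 bases the medians were 0.35 for 30 members and 0.18 for 2955 genes. Between 2000 and 4000 bases they were 0.15 for 9 members and 0.03 for 5722 genes. Of those 9 members 0 were called higher, where 15.5% of the genes were. Called higher under 1000 bases were 21 of 52 members and 21.8% of genes. Between 1000 and 2000 bases these were 11 of 30 members and 20.1% of genes. From 4000 bases the medians were 0.29 for 3 members and -0.19 for 4478 genes, with 0 members and 8.78% of genes called higher. Across genes, which are not independent replicates and share their libraries, Spearman's rho between log2 fold change and main transcript length was -0.35 over the 94 members and -0.26 over 14069 protein-coding genes.

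**Figure D3:**
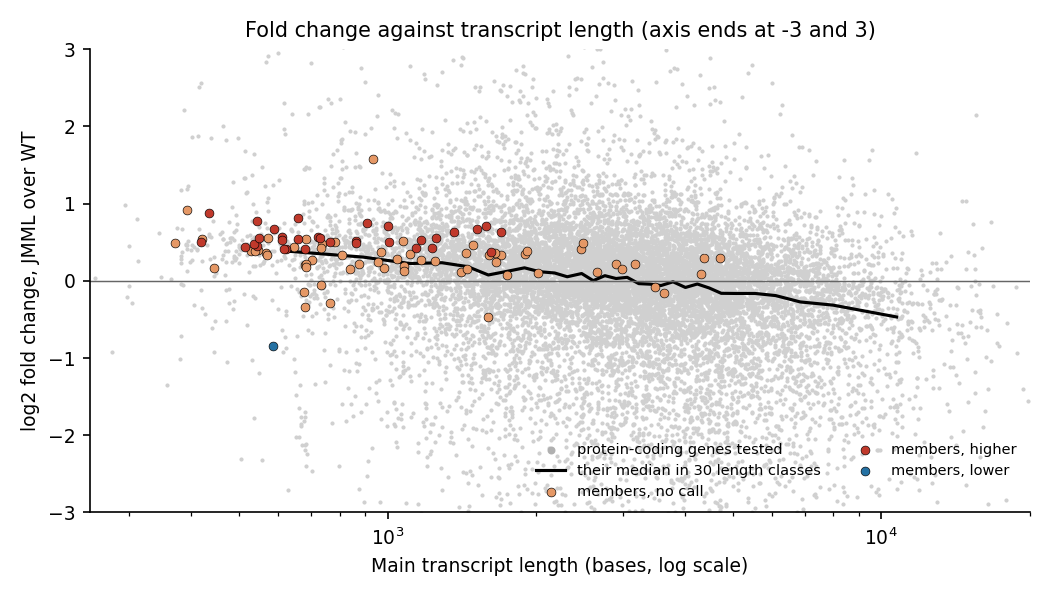
Log2 fold change of JMML over WT against main transcript length, on a log scale, for protein-coding genes (grey), their median in 30 classes of equal gene number (line) and the members (coloured by call). The line falls with length, and most members lie at lengths where it is above 0.

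The pattern was not the same in each library. Relative to the WT mean, the median member lay at 0.48, 0.30 and 0.39 (log2) in the JMML libraries, in replicate order, and at 0.10, -0.12 and 0.00 in the WT libraries. Among the JMML libraries, replicate 1 had the highest value for 58 of 94 members and replicate 2 the lowest for 52. WT replicate 2, the library with the fewest counts, had the lowest WT value for 62 members. The median coefficient of variation between replicates was 10.6% in JMML and 11.1% in WT over members. Over the protein-coding genes of like level it was 12.6% and 10.8%.

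**Figure D4:**
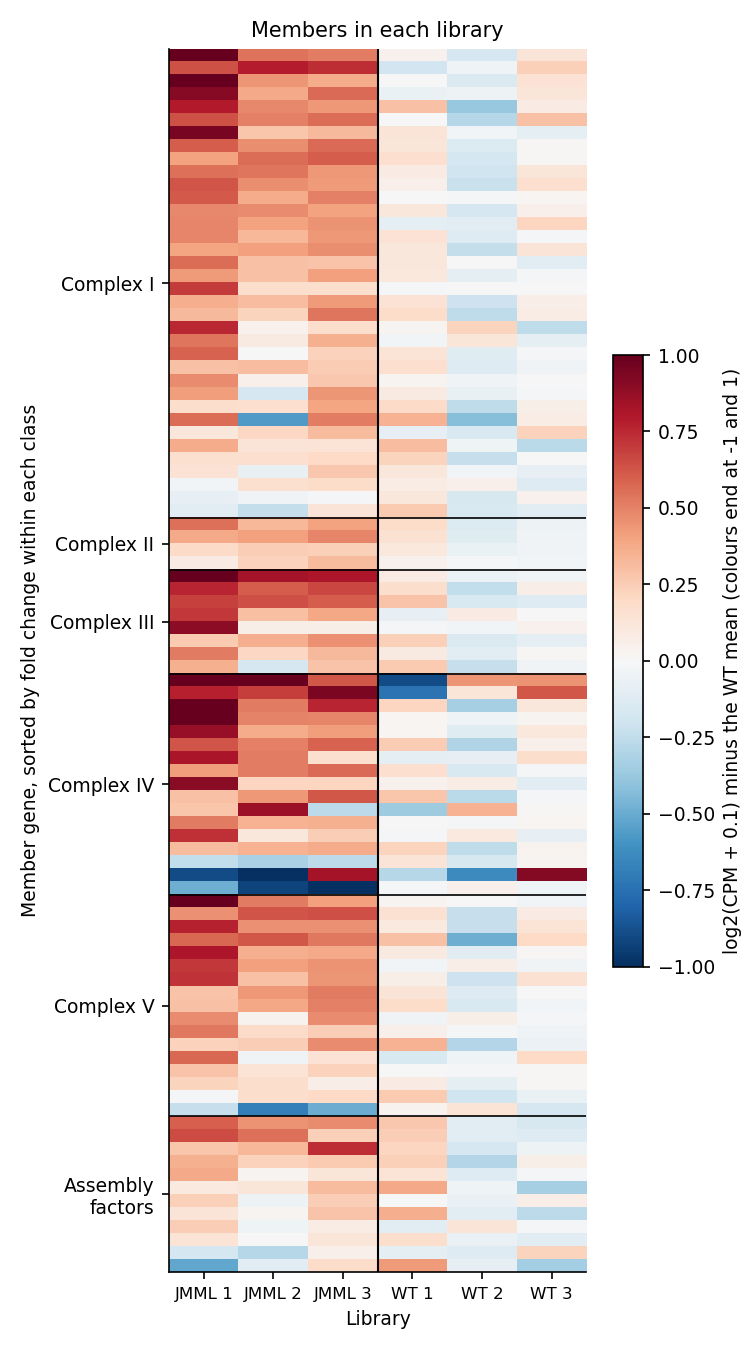
Log2(CPM + 0.1) of each tested member minus its WT mean, by library, with genes grouped by complex and sorted by fold change. Most complex subunits are red in all 3 JMML libraries, deepest in JMML replicate 1, and WT replicate 2 is mostly blue.

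The start sites of these genes were searched for the short cores bound by transcription factors known for nuclear respiratory genes. RefSeq promoters on GRCm38.p6, 250 bases before to 50 after the start, were found for 78 of 97 members. The NRF1 core GCATGCG occurred on either strand in 13 of them (16.7%), in 6.80% of tested protein-coding genes and in 4.01% of all genes of the table. The ETS core CCGGAAG, as bound by GABPA, was in 21 members (26.9%), against 18.7% and 9.93%. The YY1 core AAGATGG was in 11 members (14.1%), against 7.98% and 7.28%. Members called higher held the NRF1 core in 6 of 28 and the ETS core in 8 of 28, and members not called in 7 of 47 and 13 of 47. The YY1 core was in 3 of 28 members called higher (10.7%) and 8 of 47 not called (17.0%). A match is a run of letters and not a measured binding site. The 250 bases before the start are printed for 4 of the called members that carry a core there, chosen by hand as examples (Ndufa8 and Sdhb for NRF1, Cox6b1 and Sdhd for ETS), for Uqcr10, the member with the smallest p, and for Cox6b2, the member called lower. Capitals mark the core, which reads CTTCCGG where the ETS core lies on the other strand, and CGCATGCG where NRF1 cores of both strands overlap.
Ndufa8 (NRF1 core in capitals, chr2:36049339-36049588, minus strand): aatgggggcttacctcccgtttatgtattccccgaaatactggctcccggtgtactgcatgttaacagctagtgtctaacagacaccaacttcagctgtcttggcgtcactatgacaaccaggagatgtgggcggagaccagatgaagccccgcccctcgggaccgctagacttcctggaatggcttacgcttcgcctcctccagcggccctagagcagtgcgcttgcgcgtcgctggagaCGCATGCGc
Sdhb (NRF1 core in capitals, chr4:140961021-140961270, plus strand): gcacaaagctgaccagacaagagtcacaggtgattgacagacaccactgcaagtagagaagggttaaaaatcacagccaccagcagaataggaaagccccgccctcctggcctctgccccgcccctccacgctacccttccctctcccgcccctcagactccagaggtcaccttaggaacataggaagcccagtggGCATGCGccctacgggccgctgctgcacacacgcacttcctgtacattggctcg
Cox6b1 (ETS core in capitals, chr7:30626115-30626364, minus strand): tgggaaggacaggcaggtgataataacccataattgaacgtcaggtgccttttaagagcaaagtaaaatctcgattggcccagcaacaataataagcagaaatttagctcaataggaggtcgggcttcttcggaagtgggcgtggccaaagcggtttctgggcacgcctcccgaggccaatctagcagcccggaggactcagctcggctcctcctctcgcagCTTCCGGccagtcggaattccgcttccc
Sdhd (ETS core in capitals, chr9:50603850-50604099, minus strand): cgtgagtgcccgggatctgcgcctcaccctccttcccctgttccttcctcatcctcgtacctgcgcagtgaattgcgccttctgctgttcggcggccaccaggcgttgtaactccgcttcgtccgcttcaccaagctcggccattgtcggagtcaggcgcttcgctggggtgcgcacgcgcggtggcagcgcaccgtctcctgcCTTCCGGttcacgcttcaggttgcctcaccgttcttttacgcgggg
Uqcr10 (none of the cores, chr11:4704345-4704594, minus strand): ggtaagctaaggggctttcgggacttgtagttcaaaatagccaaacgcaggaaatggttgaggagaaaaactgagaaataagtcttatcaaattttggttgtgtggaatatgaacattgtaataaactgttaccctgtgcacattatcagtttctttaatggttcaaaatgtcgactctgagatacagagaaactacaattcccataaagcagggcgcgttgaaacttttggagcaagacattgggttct
Cox6b2 (none of the cores, chr7:4753095-4753344, minus strand): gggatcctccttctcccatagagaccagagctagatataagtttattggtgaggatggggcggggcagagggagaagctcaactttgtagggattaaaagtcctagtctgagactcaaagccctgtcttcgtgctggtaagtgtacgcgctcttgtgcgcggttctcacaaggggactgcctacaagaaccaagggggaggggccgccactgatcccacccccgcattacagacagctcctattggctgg

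Members stood next to an oppositely oriented neighbour more often than other genes. A protein-coding gene started on the other strand within 1000 bases upstream, or overlapped the start by at most 250 bases, for 28 of 97 members (28.9%), against 11.8% of tested protein-coding genes. Of these 28 members 10 were called higher, where 34.0% of all members tested and 12.4% of all genes were. Of the 24 pairs whose neighbour was tested, the member had the higher fold change in 21. The medians of those pairs were 0.40 for members and 0.07 for neighbours. Reads from overlapping exons on opposite strands cannot be assigned where the strand setting of the count is not given, and 29 members share exon bases with a gene on the other strand.

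Of the 36 complex I genes, 15 (41.7%) were called higher, 0 lower and 21 not called, with a median of 0.38. The shares of all genes were 12.4% higher and 13.8% lower. The 7 core subunits of the rule, which hold the redox centres, had a median of 0.28 with 2 called higher (28.6%). The 29 accessory subunits had a median of 0.41 with 13 called higher (44.8%). Median exon lengths were 2178 bases for core and 1251 for accessory subunits, and the difference between these sets was not tested. Ndufv3, an accessory subunit of the NADH-binding module (chr17:31520115-31531331 on GRCm38), measured 57.9, 64.1 and 62.2 CPM in JMML and 32.6, 36.0 and 43.8 CPM in WT, in replicate order as in all such lists below. Its log2 fold change was 0.71 ± 0.14 (SE, n = 3 against 3; edgeR adjusted p = 0.0109), and the groups did not overlap. Ndufb3, an accessory subunit of the membrane arm, measured 47.0, 39.8 and 43.7 CPM against 30.6, 30.5 and 31.1 (0.50 ± 0.11, adjusted p = 0.0195). Ndufb6, another of the membrane arm, had 36.2, 32.9 and 35.4 CPM against 25.98, 21.7 and 24.0 (0.54 ± 0.12, adjusted p = 0.0199). Ndufb6 shares 39.0% of its exon bases with Smim27 on the other strand. All 3 genes were higher in each JMML library than in any WT library. The calls of Ndufv3, Ndufb3 and Ndufb6 were lost in 3, 7 and 8 of the alternatives run.

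By level per kilobase of exon, Ndufc2 and Ndufb11 stood first in complex I. Ndufc2, a membrane-arm subunit, had 90.6, 56.9 and 58.8 CPM in JMML and 51.4, 46.0 and 43.9 in WT, and was not called (adjusted p = 0.0741). Ndufb11, also of the membrane arm, had 111.9, 74.8 and 73.4 CPM against 52.9, 45.8 and 56.1 (0.75 ± 0.18, adjusted p = 0.0249). In both genes JMML replicate 1 stood well above the other JMML libraries. Ndufb11 is on the X chromosome, as are Cox7b and Ndufa1, and all 3 were called higher. In the 4 libraries whose identifiers end in M, their log2 fold changes were 0.55, 0.52 and 0.46. Only 1 of these libraries is JMML, so whether the calls depend on the X chromosome was not tested. The calls of Ndufb11 and Ndufa1 were lost in 6 and 13 of the alternatives run. Among the 91 tested members off the X chromosome 29 were called higher. Complex I genes lower by sign were Ndufb10 (-0.05 ± 0.11) and Ndufab1, the acyl carrier protein (-0.08 ± 0.17), neither called.

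In complex II, which feeds electrons from the citric acid cycle, 2 of 4 subunits were called higher and the median was 0.32. Sdhb, the iron-sulfur subunit, measured 99.7, 101.7 and 107.3 CPM in JMML and 85.1, 70.5 and 74.9 in WT (0.42 ± 0.11, adjusted p = 0.0271). Sdhd, a membrane anchor, measured 174.5, 149.9 and 156.9 CPM against 134.9, 108.3 and 114.7 (0.43 ± 0.12, adjusted p = 0.0408). The calls of Sdhb and Sdhd were lost in 9 and 11 of the alternatives run. Sdha, the flavoprotein, had 249.5, 276.0 and 293.2 CPM against 241.9, 233.1 and 231.4 and was not called (0.21 ± 0.11, adjusted p = 0.183). All 4 genes, with Sdhc, the other anchor, were higher in each JMML library than in any WT library.

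Complex III had 4 of 8 genes called higher and a median of 0.44. Uqcr10, a small subunit (chr11:4701973-4704342), measured 69.5, 61.9 and 60.9 CPM in JMML and 36.8, 33.3 and 34.1 CPM in WT. Its log2 fold change of 0.88 ± 0.11 had the smallest adjusted p of all members (0.00355), and the lowest JMML value lay far above the highest WT value. It was called higher under each of the 19 alternatives run, at 0.69 to 0.98. Uqcrq, another small subunit (chr11:53427922-53430831), measured 40.2, 36.1 and 37.7 CPM against 26.8, 20.01 and 24.9 (0.67 ± 0.14, adjusted p = 0.0164). Uqcrfs1, the Rieske iron-sulfur protein (chr13:30540308-30545362), measured 125.9, 122.1 and 119.2 CPM against 95.4, 70.3 and 71.4 (0.63 ± 0.14, adjusted p = 0.0175). Uqcrq and Uqcrfs1 lost their calls in 3 and 5 of the 19 alternatives. Uqcr11, highest in the complex per kilobase of exon, had 66.9, 46.5 and 63.5 CPM against 62.7, 44.5 and 50.9 and the groups overlapped. Uqcrh, the hinge protein, showed JMML replicate 1 apart from the other libraries, at 115.8 CPM against 64.6 and 64.7 in the other JMML libraries and 60.9 to 64.0 in WT.

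**Figure D5:**
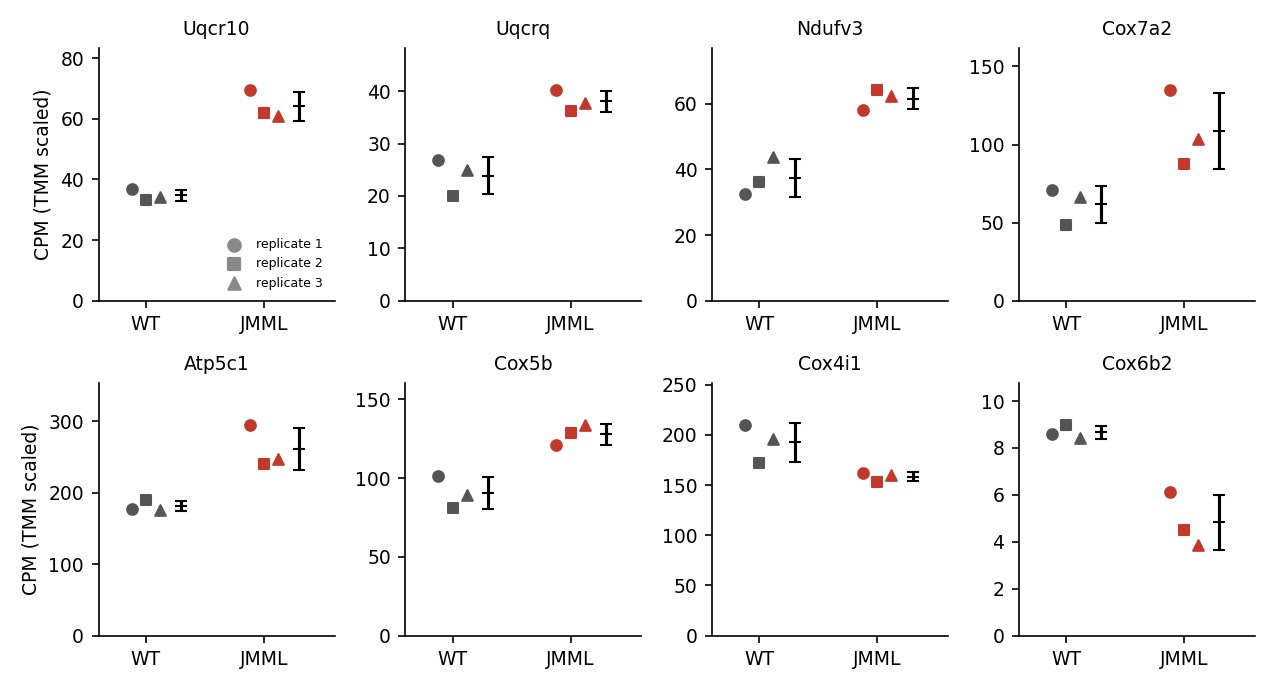
CPM scaled by TMM of 8 members in each library (points by replicate) with the mean and SD of each group (bar to the right of the points, n = 3). The JMML points of Uqcr10 (60.9 to 69.5 CPM) lie above the WT points (33.3 to 36.8 CPM), and Cox4i1 and Cox6b2 are lower in JMML.

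Complex IV had 6 genes (35.3%) called higher and 1 (5.88%) lower among 17 tested, with a median of 0.48. The shares of all genes were 12.4% higher and 13.8% lower. Cox5b, a matrix-side subunit, measured 120.9, 128.6 and 133.9 CPM in JMML and 101.3, 81.1 and 89.6 in WT (0.49 ± 0.12, adjusted p = 0.0206). Cox6b1, which faces the intermembrane space, measured 162.8, 144.7 and 145.3 CPM against 113.3, 112.4 and 115.2 (0.41 ± 0.10, adjusted p = 0.0228). Cox7b had 165.5, 110.6 and 109.6 CPM against 79.2, 76.0 and 79.5 (0.72 ± 0.17, adjusted p = 0.0229). In each of these the groups did not overlap, and JMML replicate 1 was the highest library for Cox6b1 and Cox7b. Cox8a, first in the complex per kilobase of exon, had 159.8, 146.2 and 155.3 CPM against 123.3, 83.7 and 106.7 and was called higher (0.56 ± 0.15, adjusted p = 0.0336). The calls of Cox5b, Cox6b1, Cox7b and Cox8a were lost in 10, 8, 5 and 10 of the alternatives run.

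Complex IV and complex V include subunits with alternative isoforms. Cox6b2, an isoform known from testis (chr7:4751792-4753094), measured 6.14, 4.52 and 3.86 CPM in JMML and 8.58, 8.99 and 8.41 CPM in WT. It was called lower (-0.84 ± 0.22, adjusted p = 0.0282), and no JMML library reached the lowest WT library. The call was lost with the replicate block and on leaving out any 1 library other than JMML replicate 1. Cox6b2 made up 1.99% ± 0.34 of the Cox6b reads per kilobase in JMML and 4.65% ± 0.20 in WT (SD, n = 3 each; two-sided exact permutation p = 0.10, the smallest that 3 against 3 allow, and 0.75 after Benjamini-Hochberg adjustment over 18 shares). With main transcript length in place of exon length the shares were 3.25% ± 0.55 and 7.45% ± 0.32. Cox4i1, the common form of the subunit on which the complex depends, measured 161.6, 153.2 and 160.4 CPM against 210, 171.8 and 195.9. Every JMML value of Cox4i1 was below every WT value, and the difference was not called (-0.28 ± 0.11, adjusted p = 0.101). It was called lower with library totals and with each of the 2 centred length corrections. Exons of Cox4i1 overlap Emc8 on the other strand over 9.94% of their bases. Cox4i2, an isoform known from lung, had 0.41, 0.67 and 0.25 CPM against 0.23, 0.44 and 0.33.

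The other alternative isoforms of complex IV were at low levels. Cox6a1 measured 124.2, 127.3 and 129.1 CPM in JMML against 116.8, 83.5 and 102.1 in WT, and the muscle isoform Cox6a2 0.72, 0.49 and 2.62 against 1.154, 0.88 and 2.79. Cox7a2 (chr9:79755361-79759878) had 135.0, 87.5 and 103.3 CPM against 70.8, 48.5 and 66.2, and was called higher (0.81 ± 0.20, adjusted p = 0.0253). The muscle isoform Cox7a1 had 0.45, 0.42 and 0.52 CPM against 0.09, 0.25 and 0.40 and was not called. The 7 skeletal muscle markers summed to 2.38 to 3.68 CPM in JMML and 4.25 to 4.75 CPM in WT. Cox7a2l, a supercomplex assembly factor, had 181.2, 146.3 and 114.8 CPM against 96.2, 96.7 and 116.1 and the groups overlapped. Ndufa4, a complex IV subunit despite its name, had 143.5, 101.2 and 104.8 CPM against 79.1, 71.8 and 84.3 (0.57 ± 0.16, adjusted p = 0.0343). Its hypoxia-linked paralog Ndufa4l2 had 0.39, 0.33 and 0.19 CPM against 0.00, 0.15 and 0.15. The calls of Cox7a2 and Ndufa4 were lost in 4 and 8 of the alternatives run. Cox7b2 had 2 counts in all and Cox8b and Cox8c 0, so these 3 were not tested.

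Of the 17 complex V genes, 5 (29.4%) were called higher and 0 lower, with a median of 0.39. The shares of all genes were 12.4% higher and 13.8% lower. Atp5c1, the gamma subunit of the central stalk, measured 294.7, 240.3 and 247.6 CPM in JMML and 177.6, 189.0 and 176.2 in WT (0.53 ± 0.12, adjusted p = 0.0186). Its call was lost in 6 of the alternatives run. Atp5a1 and Atp5b, the alpha and beta subunits, had the highest levels per kilobase of exon of any member. Atp5a1 measured 785.3, 872.1 and 923.2 CPM against 704.3, 591.7 and 645.6 and Atp5b 1005, 1072 and 1165 CPM against 934.3, 738 and 805.8. Each JMML value was above each WT value in both genes, which were not called (adjusted p = 0.0558 and 0.0814).

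The c subunit of the ATP synthase ring is encoded by Atp5g1, Atp5g2 and Atp5g3, whose mature proteins are the same. Atp5g3 measured 127.4, 143.3 and 144.6 CPM in JMML against 103, 78.8 and 97.8 in WT (0.57 ± 0.13, adjusted p = 0.0193). Atp5g2 had 98.6, 79.2 and 79.6 CPM against 61.7, 49.4 and 63.4 (0.56 ± 0.14, adjusted p = 0.0276), and Atp5g1 83.1, 84.2 and 98.5 against 90.2, 57.8 and 68.1, whose groups overlapped. The calls of Atp5g3 and Atp5g2 were each lost in 8 of the alternatives run. Two-sided exact permutation tests on the share of each gene in the c subunit's reads per kilobase gave p of 0.20 or more. Atp5g2 and Atp5l, the g subunit, are uncertain: copies in other genes with near-identical transcripts held 83.9% as many counts as Atp5g2 and 69.7% as many as Atp5l. The sums of member and copies differed by 1.49-fold and 1.71-fold between groups, beside 1.48-fold and 1.70-fold for the members alone.

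No assembly factor was called, where 12.4% of all genes were called higher. These 12 genes help to build complexes I and II but are not parts of them, and their median was 0.15. In edgeR 3 of 12 had an unadjusted p under 0.05, and DESeq2 called 1 (Ndufaf8) and limma-voom 0. Ndufaf8 measured 11.8, 10.6 and 10.8 CPM in JMML and 9.40, 7.19 and 6.92 in WT (0.50 ± 0.18, adjusted p = 0.074), without overlap. Ndufaf1 measured 14.4, 14.7 and 16.8 CPM against 17.5, 13.01 and 10.7, with overlap. The median of the 12 assembly factors was -0.03 with library totals, which moved the median of all genes to -0.21. In the reported fit that of all genes was -0.02, so the assembly factors' median was above it under both scalings. The difference between assembly factors and subunits was not tested.

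Of the 13 mitochondrially encoded subunits 0 were called higher and 1 lower, where 12.4% of all genes were called higher and 13.8% lower, and the median was 0.05. In edgeR 3 of the 13 had an unadjusted p under 0.05. mt-Nd5, a core subunit of complex I, measured 450, 341.3 and 262.1 CPM in JMML against 619.2, 1000 and 579.8 in WT, without overlap (-1.06 ± 0.27, adjusted p = 0.0280). This call was lost in the libraries with the letter M alone and without JMML replicate 2, JMML replicate 3 or WT replicate 2 (adjusted p up to 0.0845). The 13 together took 1.304% to 1.89% of counts.

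Genes that work beside the chain were looked at by list. Of 40 assembly and coenzyme Q genes for complexes II to V outside the rule, 2 (5.0%) were called higher and 1 (2.5%) lower. Among all genes tested 12.4% were called higher and 13.8% lower. The calls below of Cox14, Uqcc1, Tmem186 and Surf1 were lost in 11, 10, 12 and 2 of the 19 alternatives. Surf1, a complex IV assembly factor, measured 32.0, 29.8 and 28.2 CPM in JMML against 20.5, 19.9 and 19.2 in WT (0.59 ± 0.12, adjusted p = 0.0130). Cox14, also for complex IV, had 20.3, 20.1 and 17.6 CPM against 14.8, 11.0 and 13.6 (0.56 ± 0.16, adjusted p = 0.0394), and Uqcc1, for complex III, 19.0, 16.6 and 19.4 against 31.03, 23.3 and 28.2 (-0.58 ± 0.15, adjusted p = 0.0295). Of 8 complex I assembly factors outside the rule 1 (12.5%) was lower, Tmem186, at 22.5, 20.1 and 21.8 CPM against 31.6, 28.2 and 27.1.

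Electron carriers, the citric acid cycle and membrane carriers also held genes called higher, and no difference between these lists and other genes was tested. Their shares called higher were 33.3%, 28.6% and 45.5%, where 12.4% of all genes were. Of 9 carrier and quinone reductase genes 3 were higher, among them Etfb, of fatty acid oxidation, at 115, 127 and 142.8 CPM in JMML against 86.2, 75.1 and 84.1 in WT, and Cycs, cytochrome c, at 124.3, 104.6 and 140.5 against 89.7, 76.4 and 76.6. Sqor, sulfide quinone reductase, had 88.0, 66.5 and 67.8 CPM against 44.3, 42.1 and 57.4. In the citric acid cycle 4 of 14 were higher, with Sucla2 at 79.2, 64.2 and 66.9 CPM against 49.8, 50.4 and 49.6, Idh3b at 99.2, 103.6 and 101.5 against 79.9, 74.9 and 82.1 and Idh3g at 82.4, 89.0 and 87.1 against 70.7, 61.2 and 69.6. Of 11 carriers and channels 5 were higher, with Slc25a4, the ADP/ATP carrier, at 123.6, 134.2 and 137.5 CPM against 75.1, 69.2 and 68.4 (0.89 ± 0.10, adjusted p = 0.00276), Slc25a12 at 143.6, 126.6 and 174.7 against 83.0, 66.8 and 73.8 and Slc25a11 at 84.7, 85.1 and 90.3 against 61.5, 51.0 and 62.6. Of 11 pyruvate genes Mpc2, of the pyruvate carrier, was higher (47.3, 52.1 and 41.4 CPM against 32.2, 28.2 and 28.6) and Pdk2, a kinase that inhibits pyruvate dehydrogenase, lower (2.88, 2.75 and 1.68 against 5.15, 6.42 and 6.45). Mpc2 and Pdk2 each made up 9.09% of the pyruvate genes, where 13.8% of all genes were called lower. The calls of Idh3g, Idh3b, Sqor and Sucla2 were lost in 13, 10, 8 and 5 of the 19 alternatives. Those of Mpc2, Cycs, Slc25a11, Etfb and Pdk2 were lost in 4, 3, 2, 1 and 1, and those of Slc25a4 and Slc25a12 in 0. Of 18 regulators of mitochondrial DNA and biogenesis 0 were higher and 1 (5.56%) lower, and in edgeR 5 of 18 had an unadjusted p under 0.05. The lower one was Ppargc1a, a coactivator of mitochondrial genes, with 0, 6 and 4 counts in JMML and 24, 25 and 22 in WT (-3.49 ± 0.78, adjusted p = 0.0185). That call was lost with the replicate block, with the identifier letter as covariate, in the libraries with the letter M alone and without WT replicate 2 (adjusted p up to 0.131).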

How the data were processed

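Each of the 6 samples had 1 deposited table of raw counts, whole numbers per Ensembl gene with no normalization by the authors. Per the labels' protocols the kit was stranded, for total RNA, with ribosomal RNA removed. The submitters' processing notes name the build GRCm38 and, without roles, DESeq2 1.22.2, StringTie 1.3.3b and STAR 2.5.3a among other tools. Which tool counted, and with which strand setting, is not given in the sources used here. Between 51.6% and 58.8% of counts from 1 to 20 were even, so counts may overstate independent fragments. No 2 libraries agreed within sampling noise.

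Sample groups follow the labels. Counts of all 6 libraries were fitted with edgeR 4.0.16 (R 4.3.3) after filterByExpr and TMM scaling, by the quasi-likelihood F test with Benjamini-Hochberg adjustment over all genes tested and a threshold of 0.05. The standard error of a log2 fold change is its absolute value over the square root of F. CPM are counts relative to the TMM-scaled library total. Gene lengths, positions and symbols came from GENCODE vM21. In libraries simulated on 18097 genes with 200 changed, the test recovered 0% of genes changed 1.5-fold, 15.2% at 2-fold and 60.4% at 4-fold. Far more genes were called in the data, so these rates need not hold there. Alternatives were other scalings and tests (limma 3.58.1, DESeq2 1.42.0), filters, the replicate block, the identifier letter, length offsets by loess (span 0.5), thinning and each library left out.

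The members and the gene lists were chosen with earlier results of these data known. Values in every library are given for the 3 called members with the smallest p in each direction and the 2 highest per kilobase of exon in each complex, for isoforms with a count, and for the 3 called genes with the smallest p of each other list. Other genes were named after their values were seen. Some results for single genes are not reported here. Tables were handled in pandas 2.3.3 under Python 3.11.15.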

Additional observations from a re-analysis of the deposited data

How the results depend on the processing

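The median of the members was above 0 in the reported fit and in all 19 alternatives run, from 0.19 to 0.50, while the number called higher ranged from 1 to 44 and the number called lower from 0 to 2. Library totals gave 6 higher and 2 lower, a median of 0.19, medians of 0.19, 0.14, 0.24, 0.28 and 0.21 for complexes I to V, and -0.0327 for the assembly factors. The length trend removed as fitted moved the median of all genes to 0.22 and the members' to 0.50, with 0.46, 0.58 and 0.56 for complexes II, IV and V and 0.33 for the assembly factors. Centred, it gave 12 higher, 2 lower and a median of 0.28 (complex IV 0.36). On main transcript length it gave 5 higher, 2 lower and a median of 0.22 (complexes I to IV 0.18, 0.23, 0.25 and 0.23). The identifier letter as a covariate and the libraries with the letter M each left 1 higher and 1 lower. DESeq2 called 40 higher, limma-voom 32, thinning to the smallest total 32, no filter 37 and a filter of 50 counts in 3 libraries 27. Leaving out each library in turn gave 1 to 21 higher and 0 to 1 lower. The fewest came without WT replicate 2, and JMML replicates 1, 2 and 3, WT replicate 1 and WT replicate 3 left 19, 18, 20, 21 and 16. Medians without WT replicate 1 were 0.44 for complex II, 0.53 for complex V and 0.34 for the assembly factors, whose median was lowest among these (0.117) without WT replicate 2. The causes of these shifts were not tested.

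Same-numbered libraries correlated at -0.20, 0.04 and -0.13 in their deviations from the group means. These values cannot decide whether libraries were paired, as each mean rests on 3 libraries. JMML replicate 3 carries the same identifier prefix as WT replicate 3, and no other libraries share one. What this prefix stands for is not stated. With the replicate block 9 members were higher and 0 lower, all 9 among the 32 reported.

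Of the 94 members, 12 turned direction with library totals, 12 with main transcript length, 5 with exon length centred, 6 with the letter M alone and 5 with the letter as covariate, and 0 to 3 in each other setting. Of the members given with their values in every alternative, the following turned. The log2 fold change of Uqcr11 was -0.0253 with library totals, -0.0419 with exon length centred and -0.0403 with main transcript length. The log2 fold change of Ndufaf1 was -0.0292 with library totals and -0.0151 with main transcript length. The log2 fold change of Cox4i2 was -0.39 with the letter as covariate and -0.35 with the letter M alone. The log2 fold change of Cox6a2 was 0.70 and 0.74 there, 0.07 without JMML replicate 2 and 0.37 without WT replicate 3, and ranged from -1.40 to 0.37 over libraries left out. Precision is limited by 3 libraries a group with a common biological coefficient of variation of 29.4%.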
